A study of Mus musculus with 14 samples.

Results

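Blood neutrophils of mice lacking Bmal1 were set against those of mice lacking Cxcr2, a direct comparison of 2 mutants taken at the same hour. The question was whether loss of a clock gene and loss of a chemokine receptor placed below it leave neutrophils with the same transcripts. The comparison held 5 of the 14 libraries of the study, all those labelled with either deletion: 3 with the genotype BMALf/f x Mrp8Cre (replicates 2, 3 and 4) and 2 with CXCR2f/f x Mrp8Cre (replicates 4 and 5). All 5 were taken at ZT5, the fifth hour of the light phase, a clock time of 12 h. The other 9 libraries, 3 of Cxcr4f/f x Mrp8Cre mice at ZT5, 3 of wild-type (WT) mice at ZT5 and 3 of WT mice at ZT13, served as context and in the estimate of spread. Donors were C57BL/6 males 7 to 10 weeks old, and the cells were sorted on Ly6G after red cells had been lysed. The RNA was polyadenylated, and the cDNA was amplified from small inputs. Both mutants carry floxed alleles and a Cre recombinase under the Mrp8 promoter, which is active in the neutrophil lineage, so the Cre is common to the Bmal1 and Cxcr2 groups. Whether each replicate was a different mouse is not stated, so the p-values reflect only library-to-library spread, which may be technical.

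BMAL1, the product of the gene Arntl, pairs with CLOCK to drive transcription in a daily cycle, and its targets include repressors that close the loop. CXCR2 is a G protein-coupled receptor through which CXC chemokines draw neutrophils out of the bone marrow and into tissue. In neutrophils, signals of this kind are read out by fast transcription factors such as EGR1, AP-1 and NF-kB, and NF-kB induces its own inhibitors, which makes their transcripts a sensitive sign of recent activation.

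Values are the deposited normalized read counts, in which 1 read was worth 0.127 to 0.244 units depending on the library. Recovered reads ran from 5426845 to 6449119 in the Bmal1 libraries and from 4504679 to 4712667 in the Cxcr2 libraries. The targeted transcripts were read first. Arntl was at 4.37, 0 and 0 in the Bmal1 libraries and at 0 and 3.90 in the Cxcr2 libraries, that is 26, 0 and 0 reads against 0 and 17, against 100, 25 and 13 reads in WT ZT5. A gene this low checked neither label. Cxcr2 was at 2142, 2082 and 1931 in the Bmal1 libraries and at 1354 and 1439 in the Cxcr2 libraries. The groups did not overlap, with the Bmal1 libraries above, but the log2 difference of 0.55 (95% interval 0.14 to 0.97) missed the threshold of 0.05 (adjusted p = 0.439, limma, as are all those below unless another tool is named). All 5 values lay within the 1321 to 2377 of the remaining libraries, so Cxcr2 did not check the label either. Reads outside a deleted segment still count towards a gene, and whether they account for the Cxcr2 values was not tested. In the Cxcr4 libraries, Cxcr4 had 131, 65 and 96 reads, against 2111, 2297 and 2685 in WT ZT5. Both group names rest on the labels, and "Bmal1" and "Cxcr2" stand below for libraries labelled as deficient in them. The neutrophil markers were high in all 5 libraries, with Csf3r, the G-CSF receptor, at 3782 to 3999 against 3910 to 4302 and the alarmin S100a9 at 8903 to 10256 against 9802 to 13031. Ly6g itself was at 31.8 to 67.7 in Bmal1 and at 26.7 and 61.6 in Cxcr2 libraries. Bmal1 replicate 2 stood apart from replicates 3 and 4: it alone held Arntl reads, had Trim30d at 107 where the others had 0 and 0.174, and had the hemoglobin transcripts Hba-a1 at 5562 and Hbb-bs at 87463 where the others had 1371 and 1552, and 39165 and 32642. Results that rest on this library are given with and without it.

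Across 11255 genes, 15 differed between the Bmal1 and Cxcr2 libraries, 0.133% of those tested, of which 7 were higher (0.0622%) and 8 lower (0.0711%) in Bmal1 libraries. The 15 fell into 2 sets by place in the genome. Of the 15, 8 lay within 20 Mb of Arntl on chromosome 7, where 275 genes were tested (2.91%), and 7 among the other 10980 (0.0638%). The calls elsewhere comprised the NF-kB inhibitor genes Nfkbia and Nfkbiz, the protease Ctse and the receptor Cd300ld, all lower in Bmal1, and the actin-capping gene Capg, the receptor Bmpr1a and the immediate early factor Egr1, all higher in Bmal1. An unadjusted p under 0.05 was given by 902 genes (8.01%), 448 of them higher (3.98%) and 454 lower (4.03%) in Bmal1. The values of the 3 Bmal1 and 2 Cxcr2 libraries did not overlap for 2439 genes (21.7%), 1166 of them higher (10.4%) and 1273 lower (11.3%) in Bmal1. Without Bmal1 replicate 2 the count was 18, with 6 higher and 12 lower, and 10 of the 15 were among them. It was 8 without Cxcr2 replicate 4 and 6 without Cxcr2 replicate 5, where the 1 Cxcr2 library left is assumed to vary like the other groups. Tests on recovered reads gave other counts: edgeR called 5 (0.0444%), 1 higher (0.00888%) and 4 lower (0.0355%) in Bmal1. limma-voom called 10 (0.0888%), 2 higher (0.0178%) and 8 lower (0.0711%), and DESeq2 78 of 11007 with an adjusted p (0.709%), 40 higher (0.363%) and 38 lower (0.345%). The 5 genes of edgeR, Gm1966, Nfkbia, Nfkbiz, Ctse and Capg, were all among the 15.

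**Figure D1:**
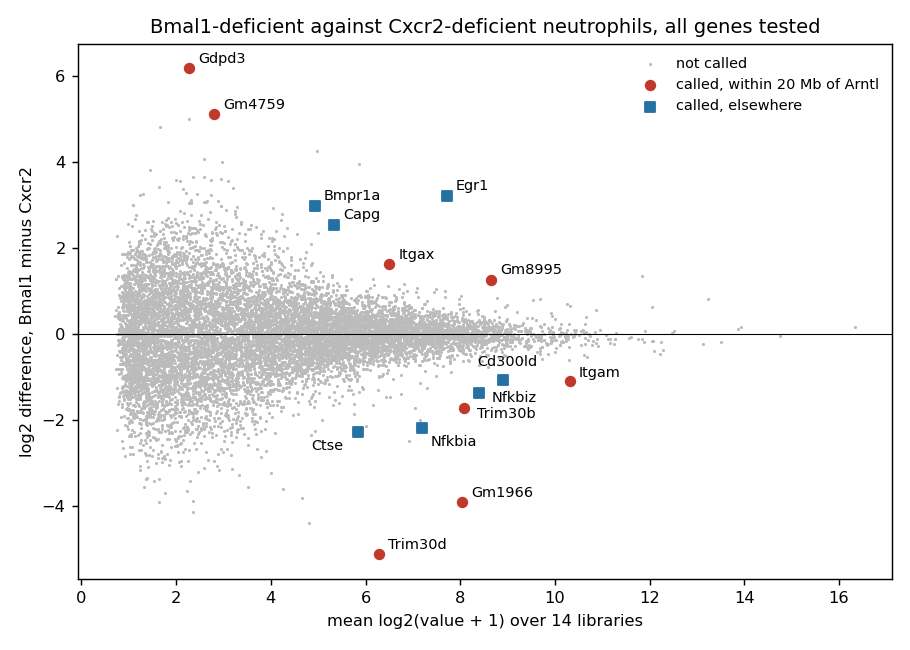
Log2 difference, Bmal1 minus Cxcr2 (vertical axis), against the mean log2(value + 1) over 14 libraries (horizontal axis) for 11255 genes, with called genes as large symbols. The 15 called genes split into 8 within 20 Mb of Arntl (red circles) and 7 elsewhere (blue squares), and the cloud of genes not called widens at low levels.

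Nfkbia and Nfkbiz were lower in Bmal1 than in Cxcr2 libraries, and the Cxcr2 libraries were the ones that stood outside all others. Nfkbia (ENSMUSG00000021025, chromosome 12, 55489410 to 55492647, GRCm38) encodes IkB-alpha, which holds NF-kB in the cytoplasm and is resynthesised when NF-kB is active. Its values were 144, 96.3 and 107 in the Bmal1 libraries, against 479 and 581 in the Cxcr2 libraries. The groups did not overlap, and both Cxcr2 values lay above those of the 9 remaining libraries, which spanned 71.2 to 291. The mean in Bmal1 was 21.9% of that in Cxcr2, a log2 difference of -2.20 (SE 0.33, adjusted p = 0.00257). Against the WT ZT5 libraries, which both comparisons share, Nfkbia differed by -0.49 in Bmal1 (adjusted p = 0.497) and by 1.71 in Cxcr2 (adjusted p = 0.0126). Nfkbiz (ENSMUSG00000035356, chromosome 16), the nuclear IkB-zeta that steers a subset of NF-kB targets, was at 289, 329 and 269 in Bmal1 and at 778 and 762 in Cxcr2. All 3 Bmal1 values sat within the 204 to 409 of the remaining libraries, and both Cxcr2 values sat above it. Its log2 difference was -1.38 (SE 0.22, adjusted p = 0.00343). With only 2 Cxcr2 libraries, dropping 1 weighed on these calls: Nfkbia lost its call without Cxcr2 replicate 5 (adjusted p = 0.0614), and Nfkbiz without replicate 4 (0.0899) or replicate 5 (0.0591). Without Bmal1 replicate 2, Nfkbia and Nfkbiz were called at -2.37 and -1.37.

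Of 20 genes tested in the list of NF-kB inhibitors and feedback genes, these were the 2 called, both lower in Bmal1, and 0 were higher. The median log2 difference of the list was -0.44, beside -0.02 over all genes tested, with 14 members negative and 6 positive. Summed over the list, the values were 1928, 1848 and 1965 in the Bmal1 libraries and 3010 and 3177 in the Cxcr2 libraries, while WT ZT5 libraries spanned 2005 to 2156. Nfkbia and Nfkbiz are part of this sum and made up most of the gap between the groups. The sum is therefore not a result apart from those 2 calls. Tnfaip3, the ubiquitin-editing enzyme A20 that ends NF-kB signalling, had 43.9, 60.8 and 64.5 in Bmal1 and 195 and 320 in Cxcr2, and missed the threshold (-2.15, adjusted p = 0.0502). Its call moved with the method: DESeq2 and limma-voom passed it at adjusted p = 0.00562 and 0.0182, edgeR did not at 0.127. Ier3, a short-lived early response gene, had 29.6, 41.1 and 56.5 in Bmal1 and 109 and 118 in Cxcr2 (-1.45, adjusted p = 0.227). The chemokine Cxcl2, a ligand of CXCR2 that is itself an NF-kB target, had 29.8, 30.9 and 0.522 in Bmal1 and 193 and 300 in Cxcr2 (-4.40, adjusted p = 0.0999). These 3 genes had groups that did not overlap, and Cxcl2 passed without Bmal1 replicate 2 (-5.12, adjusted p = 0.0469) and stood at -2.95 without Bmal1 replicate 4 (adjusted p = 0.371). For Cxcl2 the Cxcr2 libraries did not stand outside WT. WT ZT5 replicate 5 held 2351 Cxcl2 reads, worth 0.127 units each, against 878 reads, worth 0.220 each, in Cxcr2 replicate 4. WT ZT5 replicates 8 and 9 held 313 and 263 reads. The NF-kB subunits stood nearer to 0, with Nfkb1 at -0.09, Nfkb2 at -0.24, Rela at 0.34 and Rel at -0.55, none of them called. Relb was the member farthest to the other side, at 25.9, 19.3 and 24.2 in Bmal1 and 8.15 and 4.36 in Cxcr2 (1.77, adjusted p = 0.607).

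**Figure D2:**
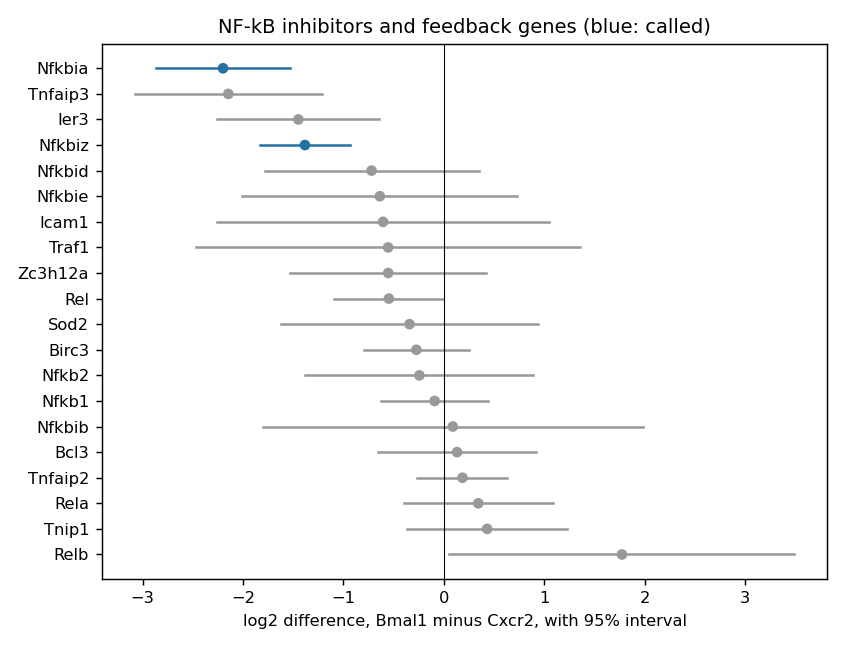
Log2 difference, Bmal1 minus Cxcr2 (horizontal axis), with its 95% interval, for the 20 genes tested among NF-kB inhibitors and feedback genes, ordered by the difference. Nfkbia and Nfkbiz (blue) were called, and Tnfaip3 and Ier3 lie beside them with wider intervals.

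The promoters of 4 of these genes are shown because the feedback of NF-kB on its own inhibitors runs through such sites. Each is 300 bases, from 250 before to 50 after a RefSeq transcription start (GRCm38.p6), written 5′ to 3′ on the gene's strand, and capitals mark matches to the NF-kB consensus on either strand. The intervals are chr12:55492598-55492897 (minus strand) for Nfkbia, chr10:19015361-19015660 (minus strand) for Tnfaip3, chr17:35821463-35821762 (plus strand) for Ier3 and chr5:90903649-90903948 (plus strand) for Cxcl2.
Nfkbia: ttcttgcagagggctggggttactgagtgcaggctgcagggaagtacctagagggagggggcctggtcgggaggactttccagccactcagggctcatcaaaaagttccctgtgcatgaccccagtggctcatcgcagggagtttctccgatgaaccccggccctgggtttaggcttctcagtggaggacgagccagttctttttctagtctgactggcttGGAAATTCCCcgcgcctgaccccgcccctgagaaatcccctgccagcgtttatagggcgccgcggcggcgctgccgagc
Tnfaip3: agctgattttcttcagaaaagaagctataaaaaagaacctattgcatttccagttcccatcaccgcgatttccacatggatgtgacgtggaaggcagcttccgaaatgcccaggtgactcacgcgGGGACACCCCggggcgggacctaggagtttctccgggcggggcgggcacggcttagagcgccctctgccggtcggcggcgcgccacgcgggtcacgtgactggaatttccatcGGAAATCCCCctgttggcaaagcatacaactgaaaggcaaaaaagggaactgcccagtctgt
Ier3: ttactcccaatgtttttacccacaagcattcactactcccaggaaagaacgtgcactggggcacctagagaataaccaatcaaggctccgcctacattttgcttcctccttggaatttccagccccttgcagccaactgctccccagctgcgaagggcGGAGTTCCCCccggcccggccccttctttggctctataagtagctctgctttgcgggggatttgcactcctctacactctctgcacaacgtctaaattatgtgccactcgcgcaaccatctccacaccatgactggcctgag
Cxcl2: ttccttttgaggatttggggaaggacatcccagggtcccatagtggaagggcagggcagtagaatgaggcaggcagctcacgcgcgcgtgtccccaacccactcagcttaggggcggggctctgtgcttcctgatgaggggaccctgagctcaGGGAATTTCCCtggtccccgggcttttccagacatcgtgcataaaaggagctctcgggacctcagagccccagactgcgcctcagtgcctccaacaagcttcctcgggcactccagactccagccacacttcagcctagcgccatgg
For each gene the first promoter holding a match was taken, so a match in all 4 was fixed by the choice. In Cxcl2 a match on each strand overlaps the other, which gives 1 run of 11 capitals, and Tnfaip3 holds 2 separate matches. Of the 17 genes of the list found in the promoter table, 10 held the NF-kB consensus in at least 1 promoter (58.8%), against 5.14% of 27025 genes, for a list made of known NF-kB targets. Of the 15 called genes, 10 were found in it, and Nfkbiz, Ctse and Egr1 were among those not found and so not scanned. Of the 10, Nfkbia was the 1 with a match. The E-box CACGTG, the site of CLOCK and BMAL1, was held by 0 of the 10 and by 8.09% of the 27025 genes. At that share, 10 genes are too few for 0 to be informative. Of the 17 genes of the list, 1 held the E-box (5.88%), which can be read in lower case in the Tnfaip3 promoter above. A match describes these letters, and no binding was measured here.

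The other 5 calls outside the Arntl region had the Cxcr2 libraries at one end for 4 genes. Ctse (chromosome 1, 131638306 to 131675505), the intracellular aspartic protease cathepsin E, was at 42.2, 49.5 and 22.4 in Bmal1, against 176 and 184 in Cxcr2. Both Cxcr2 values stood above the 25.3 to 69.2 of the remaining 9 libraries, and the Bmal1 values were at or near that range. The difference was -2.29 (SE 0.38, adjusted p = 0.00599). Cd300ld (chromosome 11), an activating receptor of the CD300 family found on myeloid cells, was at 380, 390 and 405 in Bmal1 and at 755 and 917 in Cxcr2 (-1.09, SE 0.21, adjusted p = 0.0230). Both Cxcr2 values exceeded the highest of the remaining libraries, 706. Capg (chromosome 6), a gelsolin-family protein that caps actin filaments, was at 55.7, 69.7 and 41.0 in Bmal1, against 6.83 and 10.6 in Cxcr2. Here the Cxcr2 libraries were below all others, the lowest of which had 13.4, and the Bmal1 libraries lay within the span of the rest. The difference was 2.54 (SE 0.42, adjusted p = 0.00541). Bmpr1a (chromosome 14), a type I receptor for bone morphogenetic proteins, was at 57.5, 54.3 and 60.7 in Bmal1 and at 3.75 and 10.6 in Cxcr2 (2.98, SE 0.51, adjusted p = 0.00668). The lowest of the remaining libraries had 12.6, again above both Cxcr2 libraries.

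Egr1, a zinc finger factor induced within minutes of receptor signalling, was the widest of the 7 by fold, with a mean 10.5 times as high in Bmal1. It was at 1047, 868 and 280 in the Bmal1 libraries and at 52.9 and 86.4 in the Cxcr2 libraries, without overlap (3.21, SE 0.58, adjusted p = 0.0116). Replicate 4 was the lowest of the Bmal1 libraries, WT ZT5 had 685, 1333 and 736, and Cxcr4 mutants were lower still, at 6.79, 1.22 and 22.3. Against WT ZT5, shared by both, Egr1 differed by -0.47 in Bmal1 (adjusted p = 0.769) and by -3.68 in Cxcr2 (adjusted p = 0.00374). Over all 7 genes outside the Arntl region, the Cxcr2 libraries lay beyond the range of the 9 remaining libraries for 6, all but Egr1, and the Bmal1 libraries for 0. Among all genes tested, those shares were 6.21% for Cxcr2 and 2.40% for Bmal1. The 7 genes were called for a difference between these 2 groups, which favours values beyond a range. A group of 2 libraries also falls outside a range more easily than a group of 3. The shares over all genes are therefore not a like background for the 7. Leaving out libraries cost several of these calls. Cd300ld lost its call whichever of the 5 was left out (adjusted p from 0.0807 to 0.295), and Egr1 without Bmal1 replicate 2 (0.0791), Bmal1 replicate 3 (0.0868), Cxcr2 replicate 4 (0.204) or Cxcr2 replicate 5 (0.0741). Ctse lost it without Cxcr2 replicate 4 (0.108) or 5 (0.0982), and without Cxcr2 replicate 4 so did Capg (0.108) and Bmpr1a (0.180). On recovered reads, limma-voom called neither Capg (adjusted p = 0.345) nor Bmpr1a (0.372), and edgeR did not call Bmpr1a (0.0781), Cd300ld (0.0767) or Egr1 (0.0936).

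**Figure D3:**
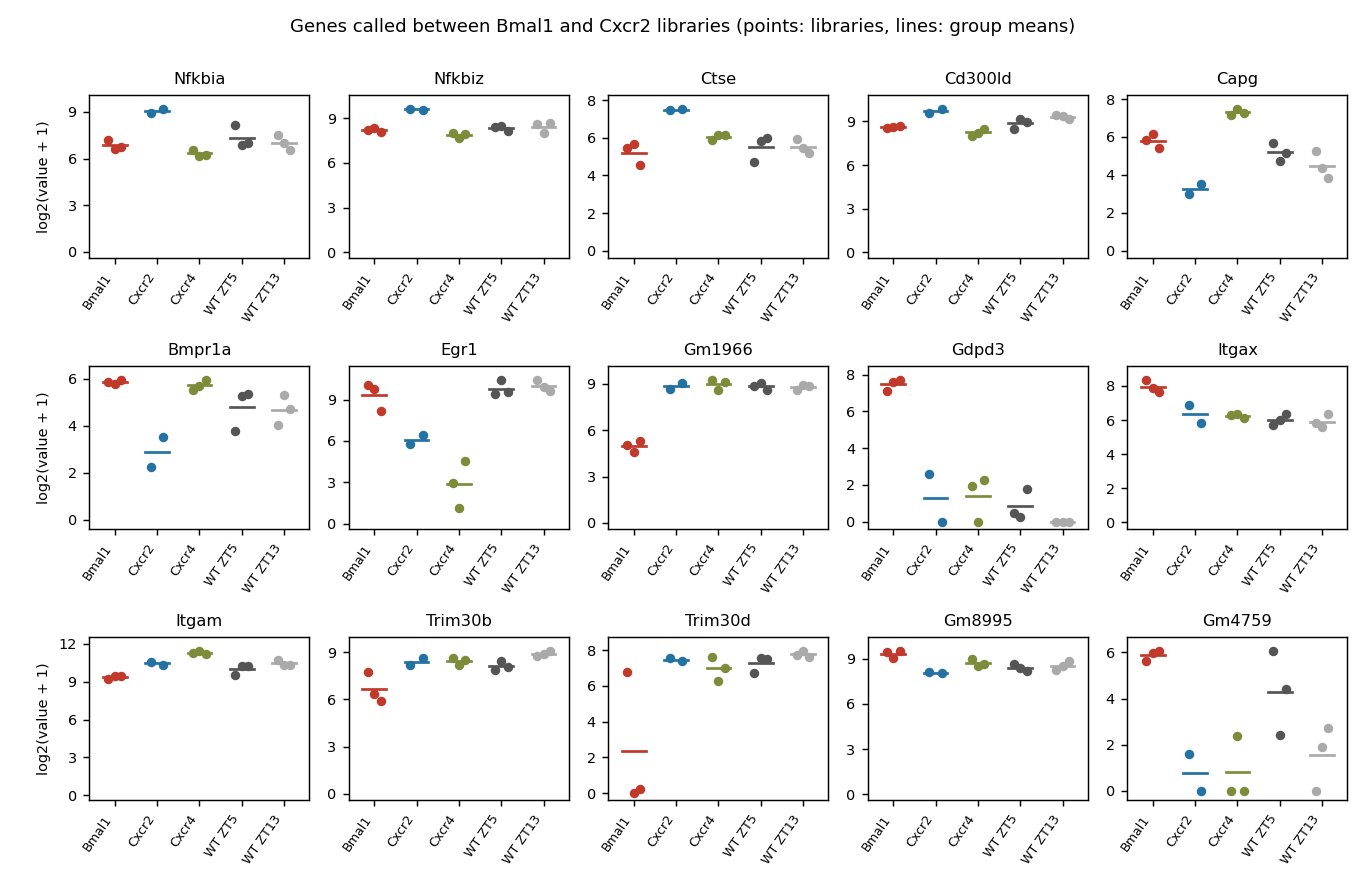
Log2(value + 1) in each of the 14 libraries (points) with group means (lines) for the 15 called genes, the 7 outside the Arntl region first. In Nfkbia, Nfkbiz, Ctse and Cd300ld the Cxcr2 libraries lie above every other library, in Capg and Bmpr1a below, while from Gm1966 to Gm4759 it is mostly the Bmal1 libraries that stand apart.

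Among genes near Arntl it was the Bmal1 libraries that departed from the rest, and the calls ran in both directions, 4 higher and 4 lower in Bmal1. Gm1966 (ENSMUSG00000073902, chromosome 7, 106596743 to 106604035), annotated as an unprocessed pseudogene, gave the smallest p of all genes. It was at 31.4, 22.7 and 38.4 in Bmal1, against 413 and 534 in Cxcr2, 6.51% of the Cxcr2 mean. Every library outside the Bmal1 group held at least 380, and the difference was -3.92 (SE 0.24, adjusted p = 1.20e-10). Gm1966 kept its call in all 16 alternatives, the other settings and tests of the comparison. Gdpd3 (126766334 to 126775649), a lysophospholipase D, was at 136, 194 and 208 in Bmal1 and at 5.07 and 0 in Cxcr2. No library outside the Bmal1 group exceeded 5.07, and the difference was 6.17 (SE 0.97, adjusted p = 0.00343), lost without Cxcr2 replicate 5 (4.87, adjusted p = 0.123). Gdpd3 was called in 9 of the 16 alternatives and missed the threshold in all 3 tests on recovered reads (edgeR adjusted p = 0.0936, DESeq2 0.101, limma-voom 0.121).

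The neighbouring integrin genes Itgax and Itgam moved in opposite directions. Itgax encodes CD11c, and Itgam encodes CD11b, the alpha chain of Mac-1, with which neutrophils adhere and phagocytose. Itgax was at 324, 235 and 195 in Bmal1, against 115 and 55.1 in Cxcr2 (1.61, SE 0.32, adjusted p = 0.0333). Itgam was at 583, 692 and 711 in Bmal1, against 1496 and 1323 in Cxcr2 (-1.09, SE 0.21, adjusted p = 0.0230). All 3 Bmal1 libraries were above both Cxcr2 and all 9 remaining libraries for Itgax, where the highest of the 9 was 81.6, and below them for Itgam, where the lowest of the 9 was 754. Their common partner Itgb2, the beta chain on another chromosome, was at 1024, 1158 and 1147 in Bmal1 and 1091 and 1204 in Cxcr2 (-0.05, interval -0.50 to 0.41). Itgam lost its call whichever library was left out (adjusted p from 0.0754 to 0.238). Itgax lost it without Bmal1 replicate 2 (0.200), Bmal1 replicate 3 (0.0928) or Cxcr2 replicate 5 (0.413).

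Trim30b and Trim30d belong to a cluster of near-identical tripartite motif genes, so how reads were shared among them is uncertain. Trim30d was at 107, 0 and 0.174 in Bmal1 and at 186 and 164 in Cxcr2 (-5.13, SE 1.05, adjusted p = 0.0378). The 637 reads of replicate 2 stand against 0 and 1 in the other Bmal1 libraries, and without replicate 2 the difference was -7.34. Replicate 2 was singled out in part by Trim30d itself, so no p is given for this gene or its neighbours without it. Trim30b was at 212, 80.0 and 59.7 in Bmal1 and at 294 and 387 in Cxcr2 (-1.74, SE 0.33, adjusted p = 0.0211), and the difference without replicate 2 was -2.27. The neighbour Trim12a followed the same split among the Bmal1 libraries, at 112, 9.49 and 11.8 against 120 and 157 in Cxcr2, and missed the threshold (-2.48, adjusted p = 0.0840). Without replicate 2 its difference was -3.58. Trim30a, of the same family, had 305, 235 and 268 in Bmal1 and 370 and 463 in Cxcr2 (-0.62, adjusted p = 0.518). Trim30b and Trim30d lost their calls without any 1 of the other 4 libraries (adjusted p from 0.108 to 0.283).

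Gm8995 and Gm4759, a transcribed unprocessed and an unprocessed pseudogene, lie between 106417848 and 106511671 next to Gm1966. Gm8995 was at 694, 530 and 732 in Bmal1, against 279 and 261 in Cxcr2 (1.26, SE 0.22, adjusted p = 0.0101). It lost its call without Bmal1 replicate 4 (0.0807), Cxcr2 replicate 4 (0.108) or Cxcr2 replicate 5 (0.135). Gm4759 was at 48.6, 61.4 and 65.9 in Bmal1 and at 1.98 and 0 in Cxcr2 (5.10, SE 1.06, adjusted p = 0.0444), but WT ZT5 libraries ranged from 4.43 to 65.6. It lost its call without any 1 of the 5 libraries (adjusted p from 0.0960 to 0.333). Beyond the 20 Mb, 0 of the other 537 genes tested on chromosome 7 were called, and within 20 Mb of Cxcr2 on chromosome 1, 0 of 220. The window around Arntl held 87 genes whose groups did not overlap (31.6%), beside 21.7% of all genes. Within it, the Bmal1 libraries lay beyond the range of the 9 remaining libraries for 6 of the 8 called genes and the Cxcr2 libraries for 1, Gm8995. The 8 were likewise called for a difference between the Bmal1 and Cxcr2 groups, which favours values beyond a range. The count in the window was 6 without Bmal1 replicate 2, 3 without Bmal1 replicate 3, Bmal1 replicate 4 or Cxcr2 replicate 4, and 1 without Cxcr2 replicate 5. What the loss of Bmal1 and what the chromosome segment around the modified allele add to these counts cannot be told apart.

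**Figure D4:**
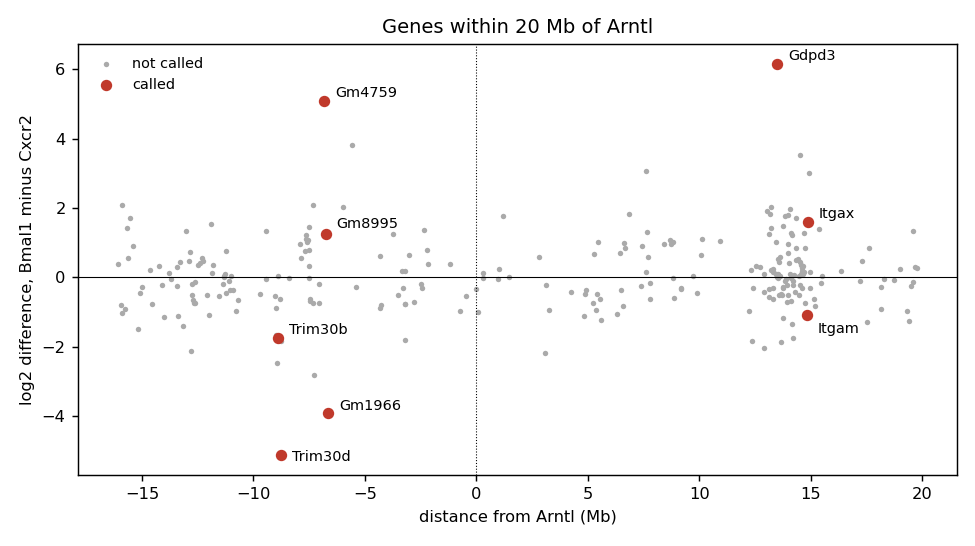
Log2 difference, Bmal1 minus Cxcr2 (vertical axis), against distance from Arntl in Mb (horizontal axis) for the 275 genes tested within 20 Mb, with called genes in red. The 8 called genes lie in clusters on both sides, and the genes closest to Arntl were not called.

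The clock and the receptor pathway that define the mutants were then read as lists. Of 14 core clock genes tested, 0 were called, with a median of -0.10 and differences from -1.77 to 1.54. Per1, a repressor of the loop, was at 164, 224 and 202 in Bmal1 and 210 and 201 in Cxcr2 (-0.08, interval -0.60 to 0.44). Cry1, another repressor, was at 40.5, 42.0 and 64.5 in Bmal1 and 34.8 and 65.7 in Cxcr2 (0.00, interval -0.87 to 0.87). The groups overlapped for both. The smallest p of the list belonged to the kinase gene Csnk1d, at 480, 429 and 427 in Bmal1 and 711 and 544 in Cxcr2 (-0.48, adjusted p = 0.555). Clock itself, at 17.1, 3.35 and 0 in Bmal1 and 41.9 and 2.76 in Cxcr2, and the output factor Dbp, at 5.04, 9.86 and 0.522 against 1.54 and 0, overlapped between the groups and varied widely within them (adjusted p = 0.738 and 0.749). Intervals within 1 log2 unit of 0 were reached by 5 of the 14.

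Of 15 chemoattractant receptors, 0 were called (median -0.19). Cxcr1, the closest relative of Cxcr2 and its neighbour on chromosome 1, was at 6.56, 9.11 and 19.7 in Bmal1 and at 49.1 and 42.5 in Cxcr2. The groups did not overlap and no other library exceeded 16.1 outside the Bmal1 group, yet the difference did not pass (log2 interval -3.75 to -0.26, adjusted p = 0.556). Cxcr4, which opposes Cxcr2 in holding neutrophils in the marrow, was at 509, 588 and 496 in Bmal1 and 423 and 370 in Cxcr2 (0.42, interval -0.17 to 1.01, adjusted p = 0.749). The formyl peptide receptor Fpr1 was at 129, 131 and 91.0 against 166 and 191 (-0.62, adjusted p = 0.600). Of 29 genes of CXCR2 signalling, G proteins, kinases and arrestins, 0 were called, the median was 0.03, and 22 had an interval within 1 log2 unit of 0. Gnai2, the main G protein alpha subunit of chemokine receptors, was at 1994, 2101 and 2067 in Bmal1 and 1996 and 2095 in Cxcr2 (0.01, interval -0.47 to 0.48).

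Other neutrophil programmes had at most 2 called members each. Of 14 markers of neutrophil ageing, Itgax was higher and Itgam lower in Bmal1, and the median was -0.29. Of 22 adhesion and homing genes, the same 2 integrins were called (median -0.14), and the homing integrin Itga4 was at 1051, 1033 and 1056 in Bmal1 and 1186 and 1194 in Cxcr2 (-0.19, interval -0.53 to 0.16). Of 30 motility and actin genes, Capg was the 1 called (median -0.08), and 27 had an interval within 1 log2 unit of 0. Of 29 phagocytosis and Fc receptor genes, Cd300ld was called (median -0.12, 22 members negative).

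Of 27 immediate early genes, Egr1 was higher and 0 were lower, with a median of 0.00. The AP-1 gene Fos was at 3224, 2748 and 1971 in Bmal1 and 2049 and 1905 in Cxcr2 (0.39, interval -0.32 to 1.11), and the phosphatase Dusp1 at 3321, 3118 and 2846 against 3337 and 3344 (-0.11, interval -0.66 to 0.44). The lists of inflammatory cytokines and antagonists (21 tested, median -0.17), chemokine ligands (10, -0.32) and interferon-stimulated genes (32, -0.19) had 0 called. So had azurophil (4, 0.70), specific (15, 0.06) and gelatinase granules (14, -0.14), S100 and calgranulins (12, -0.04), NADPH oxidase (9, 0.06), apoptosis and survival (22, -0.15), glucocorticoid targets (17, -0.23) and glycolysis (19, -0.06). Ncf4, the p40phox subunit of the oxidase, was not called, at 155, 209 and 241 in Bmal1 and 132 and 91.7 in Cxcr2 (0.85, adjusted p = 0.264). The rule for named genes also took 4 genes not called but higher in every Bmal1 library: the transcription factor subunit Gtf2a1 (1.17, adjusted p = 0.0592), the kinase Ttbk2 (3.38, 0.114), Tsc22d4 (1.04, 0.114) and the microtubule-associated Eml3 (2.31, 0.123).

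Transcripts of other blood cells were present in both groups. Red cell genes had 0 of 22 called, a median of 0.64, and 13 members with every Bmal1 value above both Cxcr2 values, an order that 10.4% of all genes had. Hbb-bt, a beta globin within the Arntl window, was at 12387, 14288 and 15125 in Bmal1 and 5209 and 5746 in Cxcr2 (1.34, adjusted p = 0.211), and shares reads with its near-identical neighbour Hbb-bs (-0.05, interval -1.15 to 1.04). The heme enzyme Alas2 was at 1464, 927 and 973 in Bmal1 and 597 and 627 in Cxcr2 (0.84, adjusted p = 0.618). Summed over the list, the values were 126600, 71320 and 64800 in Bmal1 and 70490 and 65490 in Cxcr2, so without replicate 2 the sums of the groups lay close, and the median was then 0.47. In sorted bulk samples, fewer cells of a type and less RNA per cell cannot be told apart. Monocyte and macrophage genes summed to 2639, 2715 and 2795 in Bmal1 and 2619 and 2659 in Cxcr2 (25 tested, Itgax called, median 0.10). Of the monocyte receptors, Ccr2 was low, at 16.1, 10.0 and 1.04 against 3.97 and 4.36. Csf1r was not, at 266, 282 and 311 in Bmal1 and 275 and 368 in Cxcr2, within the 217 to 415 of the remaining libraries. B cell and MHC class II genes summed to 673.7, 665.5 and 590.4 in Bmal1 and 569.7 and 588.3 in Cxcr2 (25 tested, 0 called, median 0.55). Lists of T and NK cells (9 tested), platelets (18) and eosinophils and basophils (5) had 0 called, with medians of 0.07, 0.02 and -0.13. No member of these lists was at 0 in all 5 libraries. The part of these transcripts in the calls above was not tested.

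How far the groups could be said to be alike was set by the intervals. For 2310 genes (20.5%) the 95% interval of the difference lay between -1 and 1 on the log2 scale, so a difference beyond 2-fold either way lay outside it. These were mostly abundant genes: 1914 of 2367 with a mean log2 value of 6 or more (80.9%), 396 of 4429 from 3 to 6 (8.94%) and 0 of 4459 below 3. The median width of the interval was 3.08 log2 units, so for most genes a p that misses the threshold does not show that the 2 mutants act alike. Of 34 neutrophil identity genes, 0 were called and 27 had an interval within 1 log2 unit of 0, with a median of -0.18.

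Against the same 3 WT ZT5 libraries, 115 genes were called in Bmal1 (1.02%), 46 higher (0.409%) and 69 lower (0.613%), and 75 in Cxcr2 (0.666%), 24 higher (0.213%) and 51 lower (0.453%). The 32 genes called in both, which share their controls, were set side by side in the direct comparison. Their direct differences ran from -0.52 for Kbtbd11 to 1.22 for H2-Eb1. In the direct comparison limma, edgeR, DESeq2 and limma-voom each called 0 of them, 2 had an unadjusted limma p under 0.05, 16 had an interval within 1 log2 unit of 0, and in 6 the groups did not overlap (18.8%, beside 21.7% of all genes). Choosing genes by calls against the same WT libraries in both mutants favours small direct differences. These counts therefore do not show that the mutants are alike. Both mutants also carry Mrp8Cre and floxed alleles, with which the WT libraries are not labelled. In a difference from WT common to both mutants, the deletions and these shared features cannot be told apart. The genes described next were chosen after their values were seen. Ccl6, a CC chemokine of myeloid cells, was at 2175, 2146 and 2258 in Bmal1 and 2469 and 1900 in Cxcr2, against 738, 1088 and 1126 in WT ZT5. It stood 1.18 above WT in Bmal1 (adjusted p = 0.00154) and 1.16 above WT in Cxcr2 (adjusted p = 0.00523), and the direct difference was 0.02 (interval -0.40 to 0.43). S100a8, the partner of S100a9 in calprotectin, was at 3136, 3294 and 2800 in Bmal1 and 3127 and 3617 in Cxcr2 (-0.13, interval -0.65 to 0.39). Il1rn, the interleukin-1 receptor antagonist, was at 330, 320 and 309 in Bmal1 and 410 and 318 in Cxcr2 (-0.18, interval -0.68 to 0.32). For all 3, both mutants lay above every WT ZT5 library, and the values of the 2 mutants overlapped. This was not particular to them. The Cxcr4 libraries also lay above every WT ZT5 library, at 1195 to 1534 for Ccl6, 3533 to 6234 for S100a8 and 331 to 377 for Il1rn. So did the WT ZT13 libraries for Ccl6 (1487 to 1709) and Il1rn (238 to 283), but not for S100a8 (1068 to 1646). S100a6, a calcium-binding protein of the S100 family, was at 408, 415 and 406 in Bmal1 and 601 and 568 in Cxcr2, against 165, 297 and 218 in WT ZT5. Here the mutants did not overlap, with Cxcr2 farther from WT (-0.51, SE 0.24, adjusted p = 0.595).

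On the lower side of WT, Spn, the sialomucin CD43, which also lies within 20 Mb of Arntl, was at 66.1, 52.6 and 57.2 in Bmal1 and 71.0 and 50.8 in Cxcr2, against 198, 106 and 229 in WT ZT5 (direct difference -0.04, interval -0.74 to 0.66). Cybb, the catalytic subunit of the phagocyte oxidase, was at 212, 214 and 171 in Bmal1 and 248 and 137 in Cxcr2, against 591, 329 and 453 in WT ZT5 (0.10, interval -0.46 to 0.67). Spn and Cybb are also in the list of monocyte and macrophage genes. The median of that list against WT ZT5 was -1.52 in Bmal1 and -1.48 in Cxcr2. The part of monocytes in the lower Spn and Cybb was not tested. The intervals were wide for the monocyte and B cell genes Ccr2 (0.50, -1.15 to 2.14), Fn1 (0.83, -0.54 to 2.20) and Cd74 (0.29, -0.97 to 1.55), so their likeness was not settled. H2-Eb1, of MHC class II, was at 41.4, 43.5 and 29.2 in Bmal1 and 20.7 and 11.5 in Cxcr2, without overlap (1.22, interval 0.10 to 2.35, adjusted p = 0.583). WT ZT5 replicate 5, with Cd74 at 894 where the other WT ZT5 libraries had 145 and 309, bears on those calls: without it 6 of the 32 were called in both mutants, against 28 without replicate 8 and 15 without replicate 9. Without replicate 5, calls against WT were lost in both mutants by Spn (adjusted p = 0.0949 in Bmal1 and 0.175 in Cxcr2), Cybb (0.134 and 0.125) and Cd74 (0.328 and 0.262). In Bmal1 they were then also lost by S100a8 (0.0514), S100a6 (0.213), Fn1 (0.136) and H2-Eb1 (0.382). Without replicate 9 they were lost in both mutants by Spn (0.0674 in Bmal1 and 0.126 in Cxcr2) and Cd74 (0.0601 and 0.0720), in Bmal1 by S100a6 (0.0836) and H2-Eb1 (0.0565), and in Cxcr2 by Cybb (0.0670). Ccl6 kept its call in both mutants whichever WT ZT5 library was left out.

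**Figure D5:**
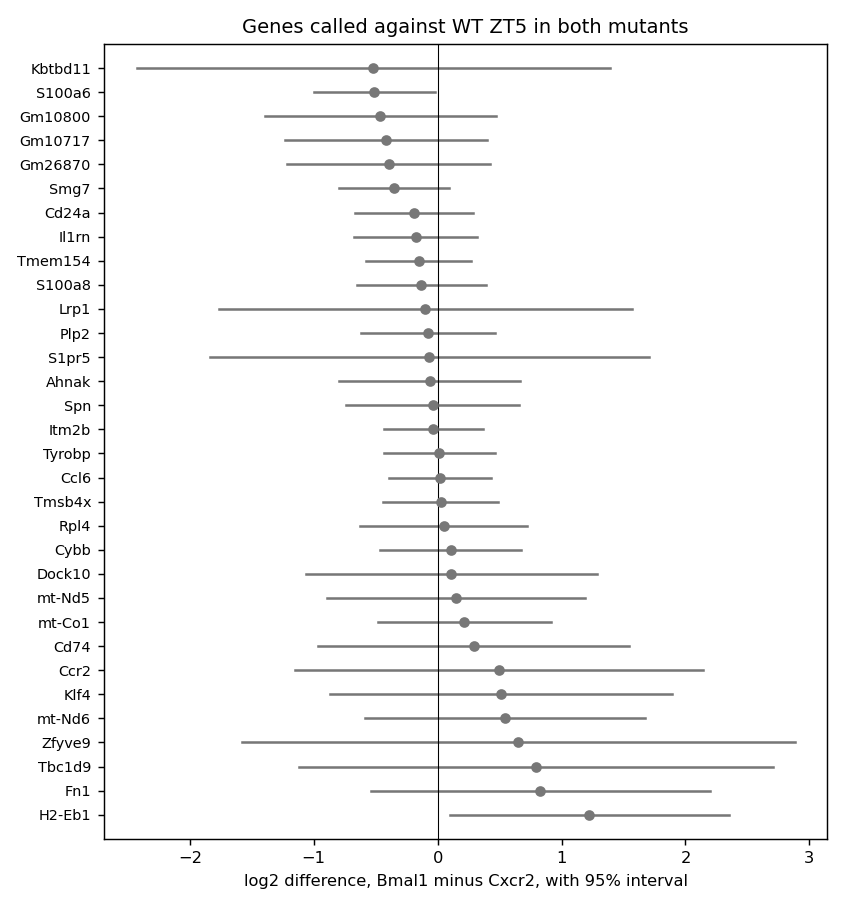
Log2 difference, Bmal1 minus Cxcr2 (horizontal axis), with its 95% interval, for all 32 genes called against WT ZT5 in both mutants, ordered by the difference. The differences run from -0.52 to 1.22, the intervals of S100a6 and H2-Eb1 leave out 0, and 16 of the 32 intervals lie within 1 log2 unit of 0.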

How the data were processed

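The deposited table holds, for 14 libraries, normalized signal per gene (11288 genes). Per the submitters' processing notes, the authors used CASAVA 1.8.2, cutadapt, RSEM 1.2.3 and the build GRCm38. How they normalized the values: not given in the sources used here. In each library 100% of the deposited values were whole multiples of 1 constant (tolerance 1e-06), so read counts were recovered. Replicate pairs differed beyond sampling noise, so no library was counted as a duplicate.

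Values were tested as log2(value + 1), a scale that understates the change of low genes. The 11255 genes averaging 1 or more entered a limma 3.58.1 trend fit (R 4.3.3) of all 14 libraries in 5 groups, which share 1 estimate of spread. Benjamini-Hochberg adjusted p-values under 0.05 were calls. edgeR 4.0.16 quasi-likelihood, which called 5 genes, DESeq2 1.42.0 and limma-voom were run on recovered reads as alternatives. Other alternatives changed the pseudocount, filter, scaling, weights or libraries. The code was tested on simulated data.

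The members and gene lists were chosen with earlier results of these data known. Named genes were the called ones of largest change, up to 12 a direction, a mean log2 of 3 or more, groups that did not overlap and no predicted gene, filled to 8 by smallest p, plus the targeted genes and list members. Gm1966, Gdpd3, Gm8995 and Gm4759 fall outside that rule and were named after their values were seen. Positions come from GENCODE M21 (GRCm38), which placed 11194 of the gene IDs, and promoters from RefSeq GRCm38.p6. A result for 1 gene is not reported here.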

Additional observations from a re-analysis of the deposited data

Results flagged for a closer look

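The 15 genes whose difference between Bmal1 and Cxcr2 libraries passed the limma test are listed for a closer look, each with its log2 difference. Outside the Arntl region these were Nfkbia (-2.20), Nfkbiz (-1.38), Ctse (-2.29) and Cd300ld (-1.09), lower in Bmal1, and Capg (2.54), Bmpr1a (2.98) and Egr1 (3.21), higher in Bmal1. Within 20 Mb of Arntl they were Gm1966 (-3.92), Itgam (-1.09), Trim30b (-1.74) and Trim30d (-5.13), lower in Bmal1, and Gdpd3 (6.17), Itgax (1.61), Gm8995 (1.26) and Gm4759 (5.10), higher in Bmal1. Of the 16 alternatives, Gm1966 was called in 16, Nfkbia in 15 and Nfkbiz in 14, while Trim30d was called in 4 and Gm4759 in 2.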

How the results depend on the processing

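The count of 15 called genes (7 higher, 8 lower, 8 near Arntl) depended on the method. A fit of the 5 libraries alone called 4 (1 higher, 3 lower, 2 near Arntl). edgeR called 5 (1 higher, 4 lower, 1 near Arntl), and DESeq2 called 78 (40 higher, 38 lower), 12 of them among the 15. limma-voom called 10 (2 higher, 5 near Arntl). Near Arntl, a pseudocount of 0.1 left 3 calls and array weights 5. Leaving out 1 of the 5 libraries gave 6 to 18 calls, 5 to 6 higher, 1 to 12 lower and 1 to 6 near Arntl, and 1442 to 1982 genes with an interval within 1 log2 unit of 0. The causes were not tested, beyond the smaller number of libraries where some were left out. A replicate block in the 14-library fit called 23 genes, 16 of them lower and 11 among the 15, and left 1512 such intervals. The Bmal1 and Cxcr2 groups share only the number 4, so the numbers do not pair their libraries.

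For 32 genes followed through these alternatives, 510 values comprised 405 on the same side of the threshold, 90 that lost a call, 15 that gained one and 0 of opposite sign. The median of all genes was -0.02 as reported, 0.00 after quantile normalization and -0.02 with DESeq2 size factors (log2). With only 2 Cxcr2 libraries, of 4504679 and 4712667 reads, 0 of 4459 genes with a mean log2 value below 3 had an interval within 1 log2 unit of 0.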
